A study of Mus musculus with 12 samples.

Results

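NIH3T3 fibroblasts carrying Tead2-VP16 and NIH3T3 fibroblasts carrying a control vector were compared at complete confluency, with 2 Affymetrix arrays in each group. These 4 arrays are 4 of the 12 in the study, chosen by their sample titles, and 1 probe set was kept for each of 18193 genes. NIH3T3 is an established line of mouse embryonic fibroblasts that stops dividing when a dish is full. The controls were infected with a virus carrying the vector alone, and the compared cells expressed Tead2-VP16, both grown until the dish was completely filled. The other 4 groups of 2 arrays were control cells and Tead2-EnR cells at 30% confluency, and dividing Tead2-VP16 and Yap cells slightly above the density at which normal cells are confluent, called high density here. The labels give neither the promoter and level of the fusion nor whether a line was 1 clone or a pool of infected cells. Whether 2 arrays of 1 group stem from different cultures is not stated either, and the p-values therefore cover only array-to-array spread, which may be technical.

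Tead factors bind DNA and have little activity alone; they recruit the coactivators Yap and Taz (gene Wwtr1), which the Hippo kinases keep out of the nucleus when cells are crowded. VP16 is a strong activation domain from a herpesvirus, and joined to Tead2 it drives Tead-bound genes without Yap, while the Engrailed domain (EnR) turns the same factor into a repressor. Known targets in fibroblasts include the secreted CCN proteins and the muscle ankyrin repeat protein Ankrd1. The comparison asked what the activator changed in cells held at full density.

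All values below are log2 intensities of a probe set, all changes are log2 fold changes of Tead2-VP16 minus control with the standard error of the fit (SE), and genes count as called when limma's adjusted p is under 0.05. Across genes, r was 0.9985 between the control arrays, 0.9983 between the Tead2-VP16 arrays and 0.996 to 0.9964 between arrays of different groups. Probe sets for 18S ribosomal RNA read 5.86 and 6.73 in control and 5.93 and 7.13 with Tead2-VP16, so they differed by array number rather than by group. Of 15 fibroblast markers, 14 stood above the median gene (6.87) in control and 13 with Tead2-VP16, and 3 were called lower (Lum, Dcn and Pdgfra, of which Pdgfra kept its call with 1 of the 4 arrays left out only without the second control) and 1 higher, Pdgfrb. The collagen genes Col1a1, Col1a2 and Col3a1 and the filament gene Vim were not called. None of 10 endothelial markers did so in either group, against 1 of 13 muscle, 1 of 8 adipocyte, 2 of 12 epithelial and 3 of 10 macrophage markers. The summed epithelial markers had log2 values of 10.86 and 10.89 in control and 10.37 and 10.33 with Tead2-VP16, and the summed macrophage markers 9.91 and 9.98 against 9.70 and 9.74. Within these lists, keratin 14 (Krt14) fell by 0.93 and lysozyme (Lyz2) by 0.66, and Cdh1, the epithelial cadherin, rose by 0.83. Cdh1 read 5.63 and 5.62 in control and 6.42 and 6.51 with Tead2-VP16, below the median gene in both groups. The epithelial marker Epcam was also called lower, at -0.49. It was called in 3 of the 4 fits with an array left out and not called with the mean of its probe sets. The part of these markers in the results was not tested.

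At complete confluency 1815 of 18193 genes (9.98%) were called, 920 higher (5.06%) and 895 lower (4.92%). Most changes were small: the median size among called genes was 0.35, and 23 genes rose and 21 fell by at least 2-fold. The median of all genes was -0.01. Both Tead2-VP16 arrays lay outside the range of the control arrays, on one side, in 52.4% of all genes, so a lack of overlap is by itself common here. With arrays centred on their medians, 1382 genes were called higher and 632 lower, so the share higher was 68.6% of called genes in place of 50.7%. Leaving out 1 of the 4 arrays left 847 (control array 1 out), 862 (control array 2 out), 951 (Tead2-VP16 array 1 out) or 986 calls (Tead2-VP16 array 2 out). Of the 302 called genes that belong to a list below or were named by rule, 150 were called in each of these 4 fits and 61 in none of them. The genes described as changed below belong to the 150 unless another count is given beside them. Of 162 called genes named by rule, 41 lost their call when only the 4 arrays were fitted and 18 when probe sets were averaged.

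**Figure D1:**
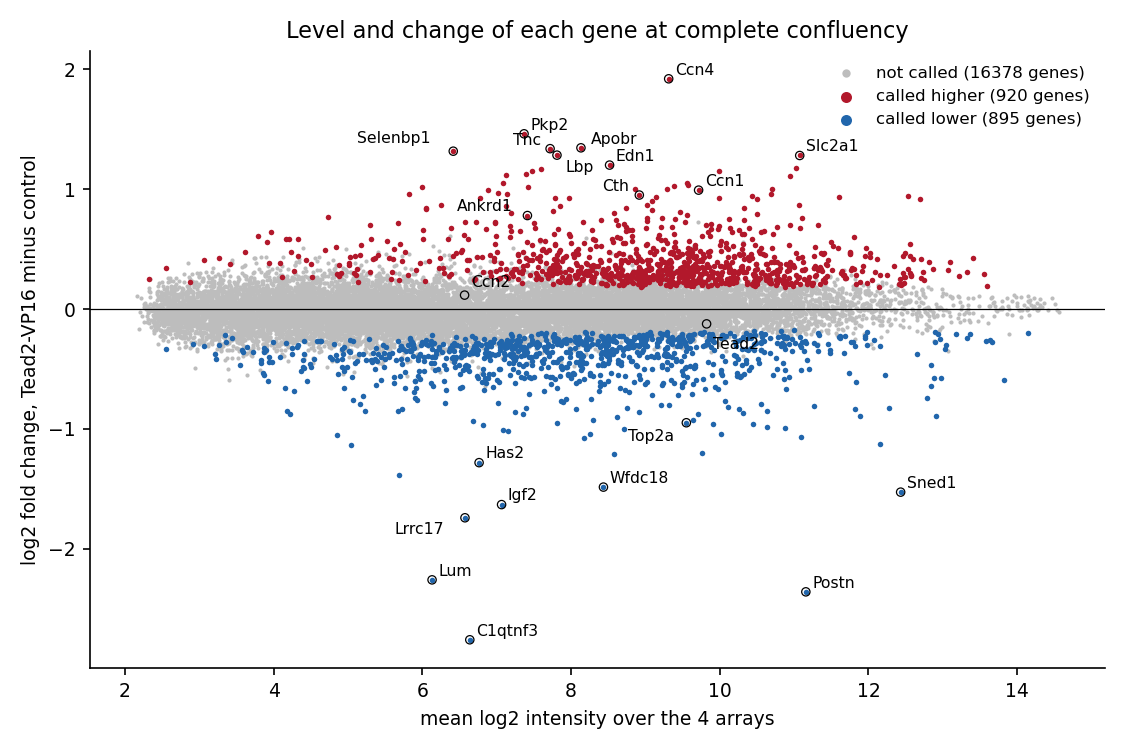
Log2 fold change of Tead2-VP16 minus control (vertical axis) against the mean log2 intensity over the 4 confluent arrays (horizontal axis) for 18193 genes. Red points are the 920 genes called higher, blue points the 895 called lower, grey points were not called, and ringed points are named genes; Ccn4 lies highest and C1qtnf3 lowest, while Tead2 and Ccn2 lie in the grey band.

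The probe set for Tead2 read 9.87 and 9.90 in control and 9.76 and 9.76 with Tead2-VP16. It was lower by 0.12 (adjusted p = 0.298) and was not called. Where this probe set lies relative to the expressed fusion is not given in the sources used here, so it does not check the labels. Yap1 differed by -0.001 (adjusted p = 0.996), less than the arrays of a group differed. Among the other Tead factors and cofactors, Wwtr1 (Taz) rose by 0.37 and Vgll3, a vestigial-like cofactor that binds Tead proteins, rose by 0.39, and Tead1, Tead3 and Tead4 were not called.

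The largest rise belonged to Ccn4, a secreted matricellular protein first found as a Wnt-induced gene. It read 8.39 and 8.32 in control and 10.25 and 10.29 with Tead2-VP16. The change of 1.92 (SE 0.053, adjusted p = 1.63e-07) was a 3.79-fold rise seen on both probe sets of the gene. Ccn1, of the same family, read 9.23 and 9.21 against 10.19 and 10.23, a rise of 0.99 (SE 0.055, adjusted p = 1.27e-05). Its probe sets disagreed: 2 of 4 were called, and the others stood at 0.12 and 0.21. Ccn2, connective tissue growth factor, read 6.31 and 6.71 in control and 6.60 and 6.65 with Tead2-VP16. The Tead2-VP16 arrays lay between the control arrays, and the difference of 0.12 was not called (adjusted p = 0.573). The result rested on the control arrays: it was -0.09 without control array 1 (adjusted p = 0.5402), and 0.32 and called higher without control array 2 (adjusted p = 0.02997). Ccn5, a family member that lacks the C-terminal domain of the others, fell by 0.60 (SE 0.064, adjusted p = 0.000422). Ccn3 and Ccn6 were not called, so 2 of 6 CCN genes rose and 1 fell. Of all genes, 5.06% were called higher and 4.92% lower.

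Of 22 known Yap/Tead targets, 7 were called higher (the background for higher calls was 5.06% of all genes) and 0 lower, with a median of 0.13. Ankrd1, a stress-responsive nuclear cofactor of muscle, read 6.91 and 7.14 in control and 7.78 and 7.82 with Tead2-VP16. Both Tead2-VP16 arrays lay above both control arrays, and the rise was 0.78 (SE 0.091, adjusted p = 0.000696). The growth arrest and DNA damage gene Gadd45a rose by 0.90 and the kinase gene Nuak2 by 0.38, which with only the 4 arrays was not called (adjusted p = 0.05246). Axl, Myof, Crim1 and Igfbp3, which are on the same list, stood within 0.06 of 0 and were not called. The count of 7 became 4, 5, 5 and 4 when control array 1, control array 2, Tead2-VP16 array 1 and Tead2-VP16 array 2 were left out.

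Ajuba, a LIM protein that restrains the Lats kinases, read 8.93 and 9.17 in control and 10.04 and 10.14 with Tead2-VP16, a rise of 1.04 (SE 0.094, adjusted p = 0.000166) with no overlap. Wtip, a LIM protein of the same family, rose by 0.66, and the scaffold gene Rassf1 by 0.34, although Rassf1 was not called without the first control array (adjusted p = 0.0536). The angiomotin gene Amotl2, a Yap-binding junction protein, stood at 0.28 (adjusted p = 0.0103) and kept its call only without the first Tead2-VP16 array, with adjusted p between 0.0602 and 0.0665 in the other 3 fits. The kinases Lats1, Lats2 and Stk4 were not called. Counts of this list stand against 5.06% of all genes called higher and 4.92% called lower. In all, 5 of 23 Hippo genes were called higher and 0 lower, and 2, 3, 4 and 4 were called higher without the first control, the second control, the first Tead2-VP16 and the second Tead2-VP16 array.

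Promoter sequences show where the letters that Tead factors recognise stand in genes that rose. The core GGAATG, searched on both strands, was looked for in RefSeq windows (GRCm38.p6) from 250 bases before to 50 bases after each start, which existed for 14368 of the 18193 genes. It occurred in 15.3% of those genes, in 19.5% of genes called higher, in 14.3% of genes called lower, in 22.1% of those higher and in 16.8% of those lower by at least 1.5-fold. Among the Yap/Tead targets with a window, 7 of 15 held it. The longer form GGAATGT, which contains the core, occurred in 3.8% of all genes, 6.0% of those called higher and 4.4% of those called lower. A match is a description of letters and says nothing of binding. The stretches below run 5′ to 3′ on the strand of the gene, and capitals mark the core, which reads CATTCC where it lies on the opposite strand. Wtip and Ajuba are shown because they held several copies, Ccn1, Ankrd1 and Edn1 because they are established or strongly changed genes, and Vgll3 as a cofactor that rose. The coactivator gene Wwtr1, which rose too, also held the core and is not shown. Genes that fell held the core as well, among them Igf2, C1qtnf3, Krt14, Id3 and Ube2c. The stretches lie at chr3:145650063-145650108 (minus strand) for Ccn1, chr19:36119942-36120074 (minus) for Ankrd1, chr7:34133269-34133518 (minus) for Wtip, chr14:54577800-54577867 (minus) for Ajuba, chr16:65815106-65815151 (plus) for Vgll3 and chr13:42301249-42301294 (plus) for Edn1, all before the start of transcription.
Ccn1: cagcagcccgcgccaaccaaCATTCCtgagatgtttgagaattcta
Ankrd1: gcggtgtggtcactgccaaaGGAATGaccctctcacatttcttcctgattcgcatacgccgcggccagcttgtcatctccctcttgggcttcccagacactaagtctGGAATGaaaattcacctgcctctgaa
Wtip: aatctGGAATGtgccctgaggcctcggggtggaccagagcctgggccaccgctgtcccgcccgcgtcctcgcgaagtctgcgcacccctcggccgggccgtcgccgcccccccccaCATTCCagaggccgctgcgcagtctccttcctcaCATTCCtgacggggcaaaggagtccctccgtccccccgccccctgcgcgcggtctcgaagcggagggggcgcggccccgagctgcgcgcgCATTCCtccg
Ajuba: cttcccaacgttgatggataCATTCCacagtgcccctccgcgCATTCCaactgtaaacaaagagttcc
Vgll3: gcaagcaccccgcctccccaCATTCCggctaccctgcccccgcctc
Edn1: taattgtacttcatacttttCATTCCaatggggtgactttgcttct
Wtip held 4 copies between 245 and 10 bases before its start, Ajuba 2 at 186 and 164 bases, and Ankrd1 2 at 210 and 123 bases. Ccn1 had 1 copy at 103 bases, Vgll3 1 at 63 bases and Edn1 1 at 207 bases.

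Among the other of the 15 largest rises, Pkp2, a plakophilin that anchors desmosomes, read 6.54 and 6.73 in control and 8.12 and 8.08 with Tead2-VP16, a rise of 1.46 (SE 0.083, adjusted p = 1.38e-05) found on 2 of its 4 probe sets. Slc2a1, the basal glucose transporter, read 10.50 and 10.37 against 11.75 and 11.68, a rise of 1.28 (adjusted p = 1.15e-05) on all 3 probe sets. The rule that chose these genes required that the groups not overlap, here and for the other rises and falls among the 30. Slc16a1, which carries lactate and pyruvate across the membrane, rose by 1.11. The integrin beta chain gene Itgb8 rose by 1.12, and Tnfrsf1b, a receptor for tumour necrosis factor, by 1.15. Apobr, a receptor for lipoproteins that contain apolipoprotein B, rose by 1.34.

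Edn1, the precursor of the vasoconstrictor endothelin, read 7.86 and 7.98 in control and 9.11 and 9.12 with Tead2-VP16, a rise of 1.20 (SE 0.065, adjusted p = 1.27e-05). Lbp, which binds bacterial lipopolysaccharide, read 7.17 and 7.17 against 8.48 and 8.42, a rise of 1.28. The other rises in this set belonged to Fads3, of the fatty acid desaturase family (1.18), the deubiquitinase gene Otud1 (1.17), the transcriptional coregulator Ifrd1 (1.15), and Stbd1, which tethers glycogen to membranes (1.12). Selenbp1, a selenium-binding protein, stood at 1.32 (SE 0.243, adjusted p = 0.00871). It lost its call when control array 2 was left out (1.25, adjusted p = 0.0646) and when Tead2-VP16 array 2 was (1.28, adjusted p = 0.0583).

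**Figure D2:**
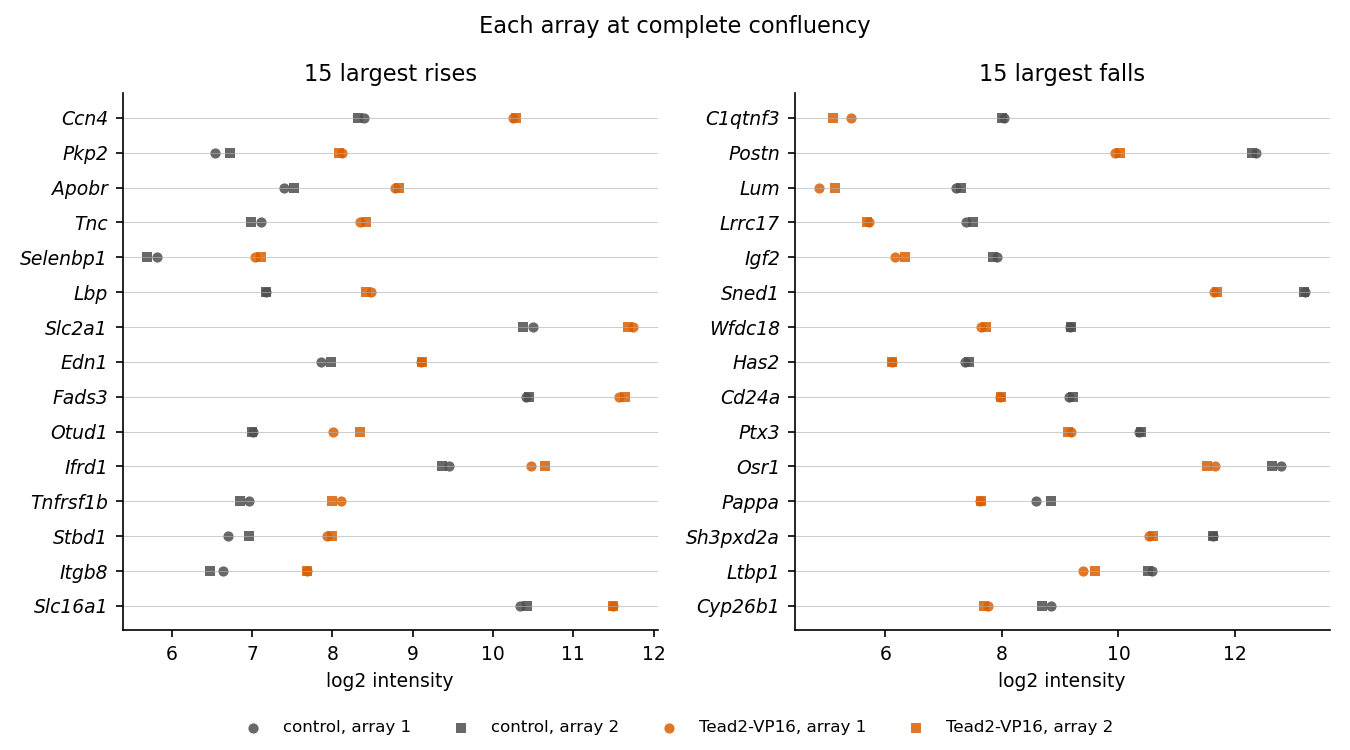
Log2 intensity on each of the 4 confluent arrays for the 15 genes with the largest rise (left) and the 15 with the largest fall (right). Grey marks are control and orange marks Tead2-VP16, circles the first and squares the second array of a group; orange and grey never cross within a gene, which the rule for choosing these genes required.

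The largest fall belonged to C1qtnf3, a secreted protein of the C1q and tumour necrosis factor superfamily, which read 8.03 and 8.0 in control and 5.41 and 5.11 with Tead2-VP16, a fall of 2.76 (SE 0.115, adjusted p = 4.13e-06). Postn, periostin, a matricellular protein of stressed connective tissue, read 12.37 and 12.30 against 9.94 and 10.02. It fell by 2.36 (SE 0.062, adjusted p = 1.63e-07), or 5.13-fold. Lum, lumican, a proteoglycan that spaces collagen fibrils, read 7.22 and 7.30 in control and 4.86 and 5.14 with Tead2-VP16, a fall of 2.26 (SE 0.137, adjusted p = 1.8e-05). The Tead2-VP16 values of C1qtnf3 and Lum lie below the median gene (6.87), and since no detection calls were used, whether they stand above background was not tested. The same limit holds for other named genes that lie below the median gene in both groups, among them Cdh1, Sema5a, Fhl1, E2f8 and Slc7a11.

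Sned1, a large secreted matrix glycoprotein, read 13.21 and 13.18 in control and 11.64 and 11.70 with Tead2-VP16, a fall of 1.53 (SE 0.064, adjusted p = 4.13e-06). Has2, the enzyme that makes hyaluronan, fell by 1.28 on both probe sets. Ptx3, a pentraxin that binds hyaluronan matrix, fell by 1.20. Ltbp1, which holds latent TGF-beta in the matrix, fell by 1.05 on all 3 probe sets. Falls were also found in Lrrc17 (-1.74) and Wfdc18 (-1.49), a small protein with a protease inhibitor domain.

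Igf2, a growth factor of fetal tissue, read 7.92 and 7.84 in control and 6.16 and 6.34 with Tead2-VP16, a fall of 1.63 (SE 0.13, adjusted p = 7.71e-05) on 1 of its 2 probe sets. Pappa, the protease that frees insulin-like growth factors by cutting Igfbp4, fell by 1.08. Osr1, a transcription factor of embryonic mesoderm, fell by 1.12, and Cyp26b1, which degrades retinoic acid, by 1.04. The surface glycoprotein gene Cd24a fell by 1.21 and Sh3pxd2a, an adaptor of invasive adhesions, by 1.07. Of the 30 largest changes, 17 genes had more than 1 probe set: all probe sets were called the same way in 9, only 1 was called in 6, and none was called the other way.

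Of 13 small leucine-rich proteoglycans, which coat collagen fibrils, 7 were called lower (background 4.92%) and 1 higher, with a median of -0.30, and 6 were called lower both with quantile normalization repeated and with arrays centred. Dcn, decorin, read 13.36 and 13.34 in control and 12.42 and 12.50 with Tead2-VP16, a fall of 0.89 (SE 0.061, adjusted p = 3.33e-05). Aspn, asporin, fell by 0.54 and Ogn, osteoglycin, by 0.34, although 1 of the 2 Aspn probe sets was not called. Prelp went the other way and rose by 0.69. Without 1 array, 5, 5, 4 and 4 members were called lower in the order first control, second control, first Tead2-VP16 and second Tead2-VP16.

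Matricellular and adhesive glycoproteins moved in both directions, with 5 of 27 called higher (background 5.06%) and 8 lower (background 4.92%). Tnc, tenascin C, read 7.11 and 6.99 in control and 8.35 and 8.42 with Tead2-VP16, a rise of 1.34 (SE 0.063, adjusted p = 9.26e-06) on 1 of its 2 probe sets. Thbs2, a thrombospondin, rose by 0.63, Nid1, a basement membrane linker, by 0.65, and Tgfbi, a TGF-beta-induced adhesion protein, by 0.56. Their relatives did not follow: Thbs1 fell by 0.75 and Nid2 by 0.55. Abi3bp fell by 1.0 and Islr by 0.76. Fibronectin (Fn1) and Sparc were not called.

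Among 22 collagen genes, 4 were called higher (background 5.06%) and 4 lower (background 4.92%). Col4a1, a chain of basement membrane collagen, rose by 0.32 (not called with only the 4 arrays, adjusted p = 0.05029) and Col4a6, another chain of that type, fell by 0.39. The other Col4a1 probe set stood at 0.13 and was not called. Col1a1 at 0.01, Col1a2 at -0.01 and Col3a1 at -0.01, the main fibrillar chains, were not called. With 1 array left out, 1 to 2 collagens were called higher and 1 to 3 lower.

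Of 19 elastic fibre and crosslinking genes, 4 were called higher and 4 lower, and 1 to 3 and 1 to 2 with an array left out. Efemp1, a fibulin, read 12.23 and 12.24 in control and 13.16 and 13.13 with Tead2-VP16, a rise of 0.91 (SE 0.056, adjusted p = 1.8e-05). Of 27 matrix protease and inhibitor genes, 4 were called higher and 6 lower. For both of these lists the background was 5.06% of all genes higher and 4.92% lower. Adamts1, a protease that cuts proteoglycans, fell by 0.98, and Timp3, an inhibitor bound to the matrix, fell by 0.64. With an array left out, 0 to 1 of this list were called higher and 2 to 3 lower.

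In this and all other lists, above and below, counts stand against 5.06% of all genes called higher and 4.92% called lower. No test of a list's direction was made. Calls lay mostly in brighter genes: 1473 of the 1815 (822 higher, 651 lower) had no overlap and a higher-group mean above the median gene, clones left out. Many lists here and above are brighter than the median gene too, such as the actin and SRF list (median 10.46 in confluent control). For these, shares over all genes are too low a background, and a share matched for level was not computed. Of 22 integrin and focal adhesion genes, 6 were called higher and 0 lower, with 3 to 4 higher and 0 to 2 lower when an array was left out. Itga6, the laminin-binding integrin alpha chain, read 10.19 and 10.22 in control and 11.11 and 11.22 with Tead2-VP16, a rise of 0.96 (SE 0.055, adjusted p = 1.38e-05). Among 31 cell junction genes, 5 were called higher and 2 lower (3 to 4 and 1 to 3 with an array left out): besides Pkp2 and Cdh1, Pvr, a nectin-like receptor, rose by 0.55, and the protocadherin gene Pcdh18 fell by 0.47. Cdh2, the main fibroblast cadherin of the list, stood at 0.16 and was not called.

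Of 38 actin cytoskeleton genes and targets of serum response factor (SRF), 12 were called higher and 3 lower. Acta2, smooth muscle actin, read 12.06 in control (mean of 2 arrays, both at or under 12.13) and 12.98 and 13.04 with Tead2-VP16, a rise of 0.94 (SE 0.061, adjusted p = 2.51e-05). Fhl2, a LIM-only cofactor, rose by 0.75 (SE 0.061, adjusted p = 7.92e-05), Flna, an actin crosslinker, by 0.53, Cnn2, a calponin, by 0.44, and Cap1, which recycles actin monomers, by 0.42. Fhl1, a relative of Fhl2, fell by 0.59, and the cytoplasmic actins Actb and Actg1 stood at 0.00 and 0.02. The count of 12 was 9 without the first control array and 7 in each of the other 3 such fits, and 9 with quantile normalization repeated. The CArG box, the site of SRF, occurred in the windows of 9 of 33 members of this list that had one and in 1.6% of all genes with a window. Among members called higher, the box occurred in 3 of 11. It and the other non-Tead motifs below were chosen after the values were seen. Fhl1, which fell, held the box too. The stretches of Cnn2 and of the start sites of Fhl2, both of which rose, are shown with the box in capitals. They lie at chr10:79988524-79988573 (plus) for Cnn2 and, for Fhl2, at chr1:43163963-43164012 and chr1:43196828-43196877 (both minus), in GRCm38.p6.
Cnn2: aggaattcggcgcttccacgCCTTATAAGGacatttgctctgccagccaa
Fhl2, at one start: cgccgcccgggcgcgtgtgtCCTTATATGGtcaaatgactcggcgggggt
Fhl2, at another start: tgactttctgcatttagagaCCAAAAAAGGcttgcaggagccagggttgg
The boxes lie 56, 31 and 96 bases before those starts, in that order.

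Of 49 genes that act in mitosis, 26 were called lower (background 4.92%) and 1 higher, and the median of the list was -0.30 against -0.01 for all genes. Top2a, the topoisomerase that untangles chromosomes before they separate, read 9.99 and 10.06 in control and 9.06 and 9.09 with Tead2-VP16. The groups did not overlap, and the fall was 0.95 (SE 0.069, adjusted p = 4.15e-05). Ube2c, which tags mitotic cyclins for destruction, read 8.55 and 8.52 against 7.99 and 7.97, a fall of 0.55 (SE 0.053, adjusted p = 0.000224). Nusap1, a spindle protein, fell by 0.56 (-0.28 and not called with the mean of its probe sets), Birc5, the survivin subunit of the chromosomal passenger complex, by 0.48, the checkpoint kinase gene Bub1b by 0.43 and the cyclin gene Ccna2 by 0.34. The members called lower changed by 0.25 to 0.95, and the exception, Anln, a scaffold of the cleavage furrow, stood at 0.26 (adjusted p = 0.0498) and was called in none of the fits with an array left out. Those fits called 16, 12, 17 and 13 members lower without the first control, the second control, the first Tead2-VP16 and the second Tead2-VP16 array. Centring the arrays left 25 called lower.

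DNA replication genes moved less, with 6 of 43 called lower, 1 higher and a median of -0.11. The largest of these falls was in Pola2, a subunit of DNA polymerase alpha (-0.40, adjusted p = 0.00719), which was called in 2 of the 4 fits with an array left out and not called with the mean of its probe sets (-0.16) or with only the 4 arrays. With arrays centred the list had 2 called lower and 2 higher, and with an array left out 0 or 1 was called lower. In the G1 group of 27 genes, Myc rose by 0.44 and the repressor E2f7 by 0.45, while Mycn, a relative of Myc, fell by 0.58 and E2f8 by 0.52 (-0.35 and not called with the mean of its probe sets). The Mycn fall rested on the probe set kept, which read 13.26 and 13.27 in control. Its other probe sets read 3.88 and 3.99, and 5.24 and 5.17, in control. They stood at -0.24 and -0.02 and were not called. The cyclin gene Ccnd1 at 0.19 (adjusted p = 0.0654) and the inhibitor Cdkn1a at 0.17 (adjusted p = 0.0682) were not called.

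The cell cycle homology region, with the letters TTTGAA on either strand, is known from promoters of mitotic genes. It was in the windows of 31 of 41 mitosis genes that had one, in 18 of 22 of those called lower, and in 15.7% of all genes. The stretches before the starts of Top2a (chr11:99024190-99024388, minus) and Ube2c (chr2:164769880-164769925, plus) in GRCm38.p6 are given because these genes fell most clearly, with TTTGAA or its reverse complement TTCAAA in capitals.
Top2a: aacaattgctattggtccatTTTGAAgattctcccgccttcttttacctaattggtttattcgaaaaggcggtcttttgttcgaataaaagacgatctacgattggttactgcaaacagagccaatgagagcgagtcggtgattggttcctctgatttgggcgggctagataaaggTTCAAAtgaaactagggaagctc
Ube2c: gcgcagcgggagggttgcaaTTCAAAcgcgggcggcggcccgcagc
The copies in Top2a lie 179 and 23 bases before its start, and the copy in Ube2c 29 bases before.

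The amino acid stress list holds Atf4, Ddit3 and genes known to be switched on by them. Of its 36 members, 22 were called higher (background 5.06%) and 1 lower, 33 stood above 0, and the median was 0.35 against -0.01 for all genes. Cth, which makes cysteine from cystathionine, read 8.40 and 8.48 in control and 9.40 and 9.39 with Tead2-VP16. It was higher in both Tead2-VP16 arrays, by 0.95 (SE 0.052, adjusted p = 1.27e-05). Slc1a5, a glutamine transporter, read 9.93 and 9.98 against 10.71 and 10.68, a rise of 0.74 (SE 0.055, adjusted p = 4.69e-05). Chac1, which degrades glutathione, rose by 0.71, and Trib3, a pseudokinase that feeds back on Atf4, by 0.61. Psph and Shmt2, enzymes of serine and glycine synthesis, rose by 0.73 and 0.56, and Asns, asparagine synthetase, by 0.44. Slc7a11, the cystine transporter, rose by 0.47, and Slc7a1, a transporter of basic amino acids, by 0.45. The factors Atf4 at 0.14, Atf3 at 0.37 and Ddit3 at 0.22 were not called. Ddit4, an inhibitor of the growth kinase mTOR, was the member called lower (-0.29, adjusted p = 0.0107) and kept its call only without the second Tead2-VP16 array. The fits without the first control, second control, first Tead2-VP16 and second Tead2-VP16 array called 18, 16, 17 and 19 members higher, and the fit of only the 4 arrays 14.

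Aminoacyl-tRNA synthetases, which charge tRNAs with amino acids, are partly controlled by Atf4 too. Of 19, 9 were called higher and 0 lower, with a median of 0.21. Iars, the synthetase for isoleucine, rose by 0.49, Mars1, for methionine, by 0.46, and Nars, for asparagine, by 0.36. Without 1 array the count was 4, 5, 6 and 6, in the order used above. Chaperones of the endoplasmic reticulum moved less: 5 of 24 were called higher and 1 lower, Hspa5, the main chaperone, rose by 0.28 but was not called with the mean of its probe sets (0.17, adjusted p = 0.06969) or with only the 4 arrays (adjusted p = 0.07132), and 2 were called higher in each fit with an array left out.

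The composite element of Atf4 and Cebp factors, TGATGNAA on either strand, was in the windows of 10 of 31 amino acid stress genes, 8 of 18 of those called higher, 5 of 12 synthetases and 3.2% of all genes. Of the synthetases called higher, 2 of 6 held the element. It is shown in capitals for 4 members that rose, Slc7a11 (chr3:50443633-50443699, minus), Asns (chr6:7693210-7693252, minus), Chac1 (chr2:119351029-119351076, plus) and Pck2, mitochondrial phosphoenolpyruvate carboxykinase (0.45; chr14:55540143-55540190, plus), in GRCm38.p6.
Slc7a11: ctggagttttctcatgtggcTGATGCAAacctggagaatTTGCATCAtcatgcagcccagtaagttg
Asns: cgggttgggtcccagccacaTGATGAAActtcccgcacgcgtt
Chac1: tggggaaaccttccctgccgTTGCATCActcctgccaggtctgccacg
Pck2: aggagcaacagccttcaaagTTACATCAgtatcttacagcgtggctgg
Slc7a11 held the element on both strands, 66 and 47 bases before the start, and the single copies lie 23 bases before the start in Asns, 193 in Chac1 and 103 in Pck2.

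**Figure D3:**
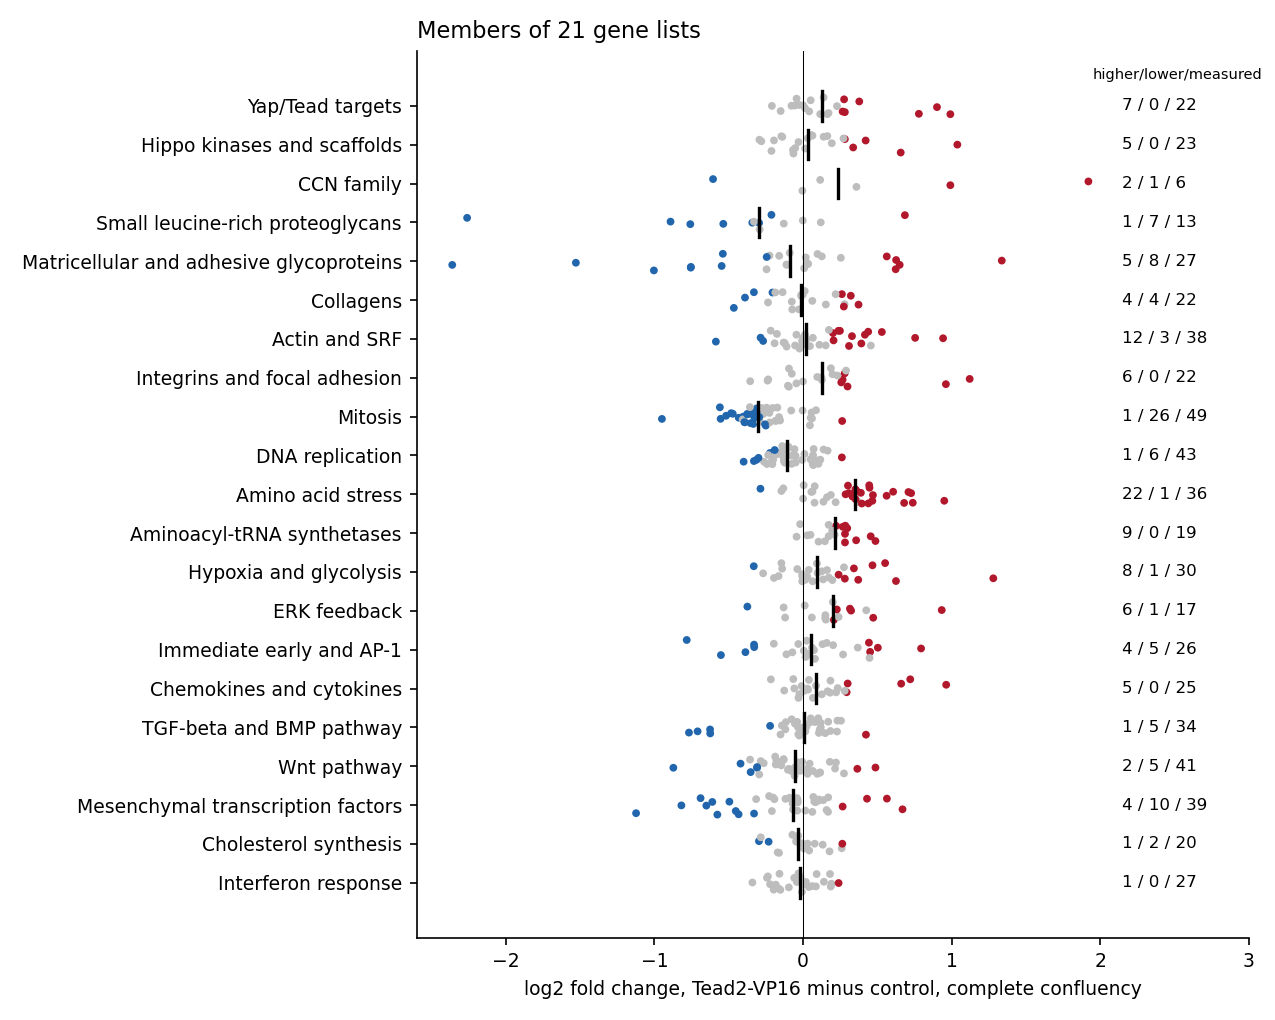
Log2 fold change of Tead2-VP16 minus control (horizontal axis) for every measured member of 21 gene lists (rows). Each point is 1 gene, red if called higher, blue if called lower and grey if not called, black bars are list medians, and the numbers at the right are the counts called higher, called lower and measured; amino acid stress lies mostly to the right of 0 and mitosis mostly to the left.

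Glucose handling and hypoxia genes included 8 of 30 called higher and 1 lower, and 6 to 7 and 0 to 1 with an array left out. Besides Slc2a1, Adm, the vasodilator adrenomedullin, rose by 0.63, Pfkp, a phosphofructokinase, by 0.55, and Aldoa, an aldolase, by 0.47. Ldha at 0.03, Hk2 at 0.13 and Vegfa at 0.04, which belong to the same programme, were not called. With arrays centred, 13 of this list were called higher. Cholesterol synthesis had 1 of 20 called higher and 2 lower, and ribosome biogenesis 2 of 33 higher and 0 lower; none of these 5 genes except Noc2l and Hsd17b7, each in 1 fit, was called when an array was left out.

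In signalling, feedback inhibitors of the ERK kinases were called higher in 6 of 17 cases and lower in 1, and 2 to 3 were called higher with an array left out. Dusp1, a phosphatase of MAP kinases, read 11.16 and 11.11 in control and 12.04 and 12.10 with Tead2-VP16, a rise of 0.93 (SE 0.049, adjusted p = 1.27e-05), and Spred2 rose by 0.47 (0.15 and not called with the mean of its probe sets). Immediate early genes split, with 4 of 26 called higher and 5 lower (4 to 6 and 2 to 4 with an array left out). Ier3 rose by 0.80, Klf6 by 0.50 and Ier5 by 0.45, whereas Fos, a subunit of AP-1, fell by 0.78 and Ier2 by 0.55. Of the other Klf6 probe sets, those at 0.10, 0.23 and 0.27 were not called and the one at 0.47 was. Fos read 7.35 and 7.48 in control and 6.55 and 6.71 with Tead2-VP16, so the groups did not overlap.

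The insulin-like growth factor axis had 3 of 17 genes called higher and 4 lower. Igfbp4, the binding protein that Pappa cleaves, fell by 0.55, along with Pappa and Igf2 above. Insr, the insulin receptor, rose by 0.46 (0.23 and not called with the mean of its probe sets) and Igfbp6 by 0.39. Among 29 genes of the PDGF, FGF and EGF axes, 6 were called higher and 3 lower (3 to 4 and 1 to 2 with an array left out). Fgfr2 read 8.77 and 8.75 in control and 7.87 and 7.79 with Tead2-VP16, a fall of 0.93 (SE 0.075, adjusted p = 7.92e-05), while the ligand Pdgfc rose by 0.40 and the receptor Pdgfrb by 0.38. The other probe sets of Pdgfc and Pdgfrb stood at 0.27 and 0.16 and were not called.

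Of 34 genes of the TGF-beta and BMP pathways, 5 were called lower and 1 higher. Among the Id genes, inhibitors of helix-loop-helix factors and known readouts of BMP signalling, 3 of 4 fell: Id3 read 10.46 and 10.44 in control and 9.69 and 9.67 with Tead2-VP16, a fall of 0.77 (SE 0.052, adjusted p = 3.13e-05), and Id1 and Id2 fell by 0.62 each. Fst, follistatin, an activin antagonist, fell by 0.71, and Skil, a Smad corepressor, rose by 0.42. Id4, at 0.26 (adjusted p = 0.0536), and the ligands Bmp2, Bmp4 and Tgfb1 were not called. With an array left out, 4 members were called lower in each fit.

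Among 41 Wnt pathway genes 5 were called lower and 2 higher, and 3 to 5 and 1 to 2 with an array left out. Rspo2, a secreted amplifier of Wnt signals, read 10.12 and 10.17 against 9.27 and 9.28, a fall of 0.87 (SE 0.065, adjusted p = 4.79e-05), and the receptor Fzd7 rose by 0.49 while Fzd3 fell by 0.42. Notch pathway genes had 0 of 17 called higher and 2 lower, and with arrays centred none was called and with an array left out 0 to 1 was called lower. Guidance factors had 3 of 32 called higher and 3 lower, with Sema5a rising by 0.72 and Sema3c by 0.51, while with arrays centred 0 were called lower and with an array left out 0 to 1.

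Of 39 mesenchymal transcription factors, 10 were called lower and 4 higher, and with an array left out 6 to 7 and 2. Besides Osr1, its relative Osr2 fell by 0.69, the forkhead gene Foxc2 by 0.82, Sox4 by 0.58 and the paired-type homeobox gene Prrx2 by 0.45. Foxc2 read 10.51 and 10.54 in control and 9.71 and 9.70 with Tead2-VP16, with no overlap. Tbx18 rose by 0.67 and the tendon factor Mkx by 0.56. The general mesenchymal factors Twist1, Snai2 and Zeb1 were not called.

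Growth arrest genes had 7 of 28 called lower and 2 higher. Gas6, a secreted ligand of the Axl receptor, read 11.36 and 11.38 in control and 10.42 and 10.33 with Tead2-VP16, a fall of 0.99 (SE 0.056, adjusted p = 1.29e-05), and Tsc22d3, a glucocorticoid-induced factor, rose by 0.47. Of the 7, 1, 2, 2 and 3 were called lower without the first control, second control, first Tead2-VP16 and second Tead2-VP16 array. In the Bcl-2 family, Bmf, which promotes cell death after loss of anchorage, fell by 0.86 and Bnip3 rose by 0.37, among 2 called each way of 15 (1 higher and 1 to 2 lower with an array left out).

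Chemokines and cytokines had 5 of 25 called higher and 0 lower, and 3 to 5 with an array left out. Ccl7 and Ccl2, which attract monocytes, rose by 0.96 and 0.72, and Csf1, the macrophage growth factor, by 0.66. Of 17 complement and acute phase genes, Lbp rose and Ptx3 fell. The interferon response had 1 of 27 called, Bst2 at 0.24, which was called in no fit with an array left out.

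The remaining lists had few calls. Glutathione and Nrf2 genes had 5 of 32 called higher and 2 lower: Gsta4, a glutathione transferase, fell by 0.48 and the quinone reductase gene Nqo1 by 0.43, while Hmox1, which degrades haem, rose by 0.32 (not called with only the 4 arrays, adjusted p = 0.05687). With an array left out, 3 of this list were called higher and 2 lower in each fit. Circadian output genes had 3 of 17 called higher and 2 lower (1 to 3 and 1 to 2 with an array left out), with Nfil3 rising by 0.57 and Per3 falling by 0.40. Fatty acid and adipogenic genes had 2 of 21 called each way (2 higher and 0 to 1 lower with an array left out), with Cebpd rising by 0.54 and the lipase gene Lpl by 0.33. The p53 target list had 4 of 21 called higher and 1 lower (2 to 3 and 0 with an array left out); besides Gadd45a, the kinase gene Plk2 rose by 0.51 (0.11 and not called with the mean of its probe sets), and Cdkn1a and Mdm2 were not called.

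The levels of the main genes over the 6 groups place this comparison in the series, as a description without a test, since other groups share control arrays with it. Ccn4 had a mean of 8.87 ± 0.05 in control at low density, 8.11 ± 0.01 with Tead2-EnR at low density, 9.19 ± 0.03 with Yap and 9.89 ± 0.003 with Tead2-VP16 at high density, 8.35 ± 0.05 in confluent control and 10.27 ± 0.03 in confluent Tead2-VP16 (SD, n = 2 each). The confluent Tead2-VP16 cells held the highest level of the 6 groups. Ccn1 was highest in low-density control (10.69 ± 0.02) and close to equal in confluent Tead2-VP16 (10.21 ± 0.03) and Yap cells (10.22 ± 0.01), groups that do not differ beyond their spread. Ccn2 fell from 11.60 ± 0.02 in low-density control to 6.51 ± 0.29 in confluent control, read 8.84 ± 0.004 with Tead2-VP16 at high density and 6.63 ± 0.04 with Tead2-VP16 at complete confluency. The confluent groups were thus its lowest, with and without the fusion.

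Postn read 7.37 ± 0.001 in low-density control and 12.34 ± 0.05 in confluent control, and 9.98 ± 0.05 in confluent Tead2-VP16 lay between them. Lum had its highest mean in confluent control (7.26 ± 0.06), 5.0 ± 0.20 in confluent Tead2-VP16, and 3.84 ± 0.15 to 4.15 ± 0.07 in the other 4 groups. Sned1 likewise was 6.89 ± 0.10 in low-density control, 13.20 ± 0.02 in confluent control and 11.67 ± 0.04 in confluent Tead2-VP16. Top2a did not lie between the control groups: it read 11.21 ± 0.08 in low-density control, 10.02 ± 0.05 in confluent control and 9.07 ± 0.02 in confluent Tead2-VP16 (SD, n = 2 each).

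**Figure D4:**
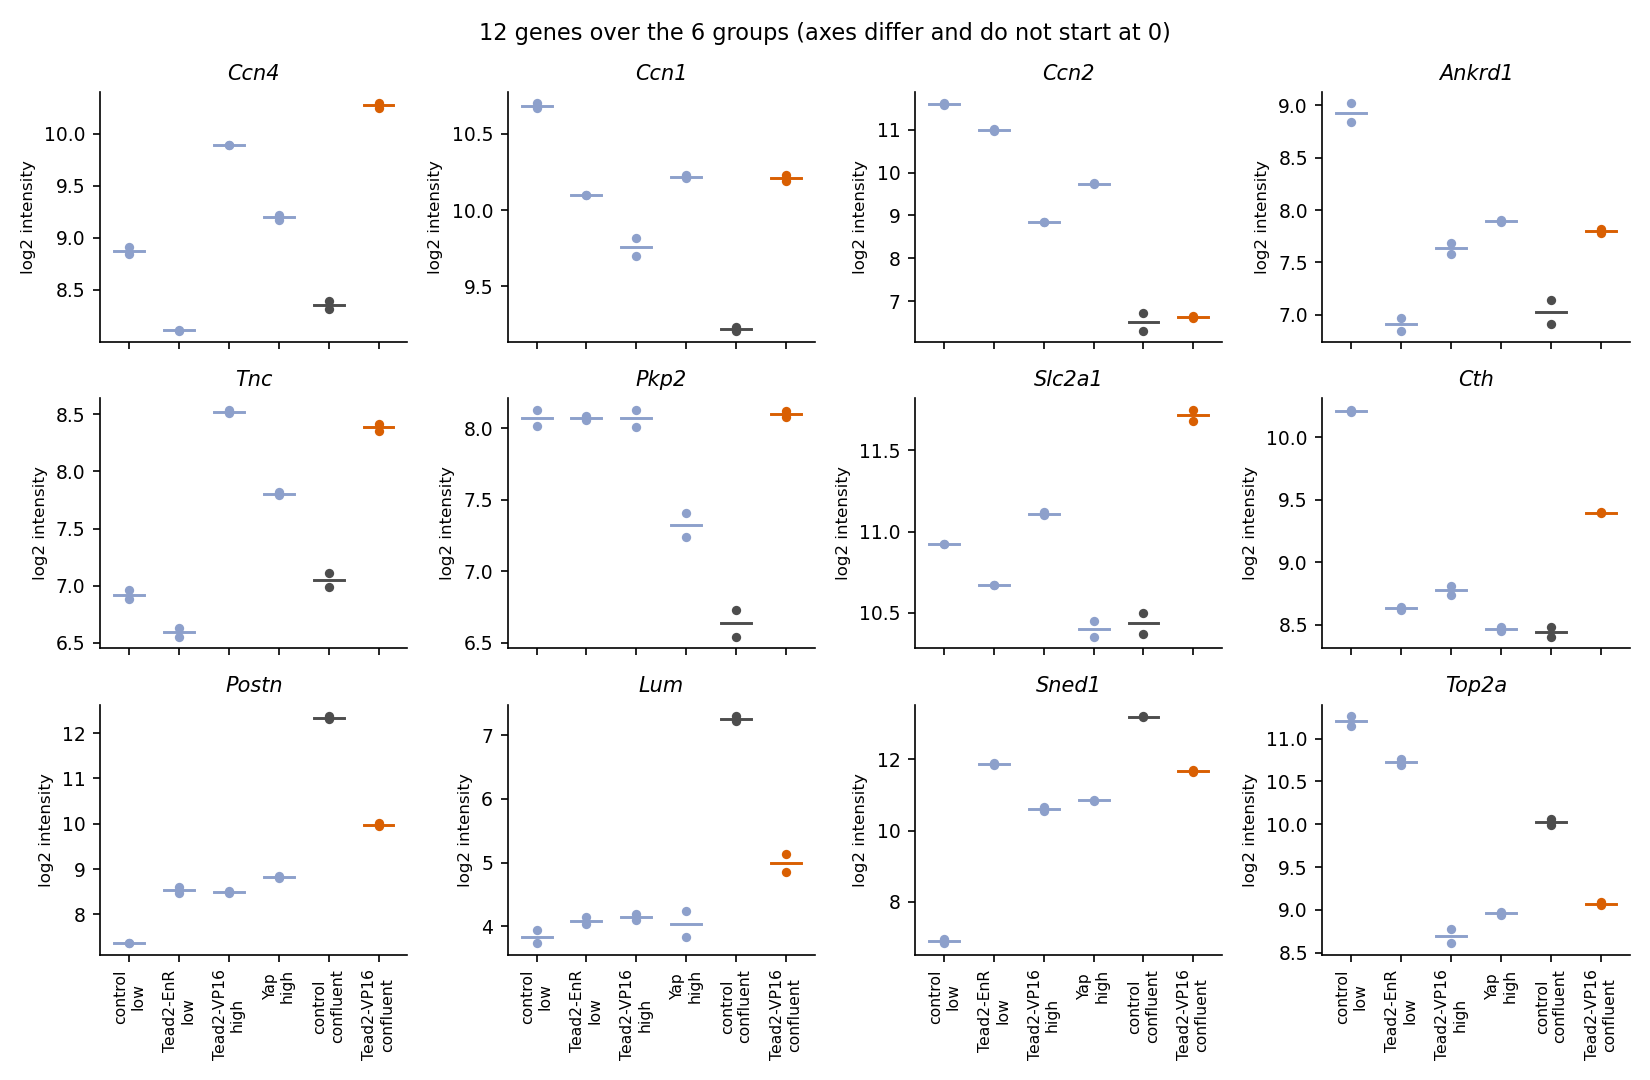
Log2 intensity of 12 genes on each array of the 6 groups; each point is 1 array, bars are group means, confluent control is dark grey, confluent Tead2-VP16 orange and the other groups blue, and the vertical axes differ and do not start at 0. Postn, Lum and Sned1 are highest in confluent control, and Ccn4 and Slc2a1 are highest in confluent Tead2-VP16.

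The repressor fusion offers a comparison that shares no array with this one. Tead2-EnR against control was measured at low density, so fusion and density differ at the same time and their parts cannot be told apart. It had 6980 of 18193 genes called (38.4%), 3688 higher (20.3%) and 3292 lower (18.1%), so 52.8% of its calls were higher, against 32.1% with arrays centred. Of the 920 genes called higher with Tead2-VP16, 402 (43.7%, and 12.2% of the genes lower with Tead2-EnR) were called lower with Tead2-EnR and 233 (25.3%) higher. Of the 895 called lower, 462 (51.6%, and 12.5% of the genes higher with Tead2-EnR) were called higher and 166 (18.5%) lower. Among genes that changed by at least 1.5-fold, 82 of 139 rises and 98 of 136 falls were called the opposite way. When only genes above the median level were fitted, Tead2-EnR still had 3350 called higher and 3013 lower. Calls of both comparisons were thus more common among brighter genes. Shares over all genes are therefore too low a background for these overlaps, and a share matched for level was not computed. Across all genes the 2 sets of changes had r = -0.203, a description over points that share the array design and the normalization.

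Among the 15 largest rises, 9 were called lower with Tead2-EnR, 2 higher and 4 not at all. Edn1 fell by 1.84 with Tead2-EnR and Ccn4 by 0.76. Ankrd1 fell by 2.01, Cth by 1.58 and Ifrd1 by 1.13. The tests of the difference between the fusions, in which 5948 genes were called (32.7%), gave 3.04 for Edn1, 2.80 for Ankrd1 and 2.68 for Ccn4, all called. Every gene called in opposite directions was called in this test, 402 of 402 and 462 of 462. Its calls for such genes therefore add nothing to the 2 separate comparisons. Lbp and Itgb8 went against this and rose by 3.52 and 2.16 with Tead2-EnR as well.

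Among the 15 largest falls, 11 were called higher with Tead2-EnR, 2 lower and 2 not at all. Sned1 rose by 4.97 with Tead2-EnR, Wfdc18 by 3.0, Ptx3 by 1.59 and Postn by 1.17, and Dcn, outside the 15, by 3.58. Lum and Igf2, at 0.26 and -0.10, were not called there. C1qtnf3 fell with both fusions, by 2.76 and 2.32, and Has2 by 1.28 and 0.28. The lists differed in this respect. Of the 22 Yap/Tead targets, 9 were called lower and 8 higher with Tead2-EnR (median 0.01), so this list did not move 1 way there. Of the 49 mitosis genes, 26 of which were called lower with Tead2-VP16, 48 were called lower with Tead2-EnR too (median -0.64). Of the 36 amino acid stress genes, 26 were called lower with Tead2-EnR (median -0.47), and so were 18 of the 19 synthetases (median -0.66). With Tead2-VP16, 22 and 9 of these had been called higher. The Tead2-EnR background was 18.1% of all genes lower and 20.3% higher. Called lower with Tead2-EnR were also 33 of 33 ribosome biogenesis genes (median -0.99) and 40 of 43 DNA replication genes, lists with few Tead2-VP16 calls. The fall with Tead2-EnR was thus not particular to lists that rose with Tead2-VP16. Of 13 small leucine-rich proteoglycans, 7 were called higher with Tead2-EnR and 0 lower.

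**Figure D5:**
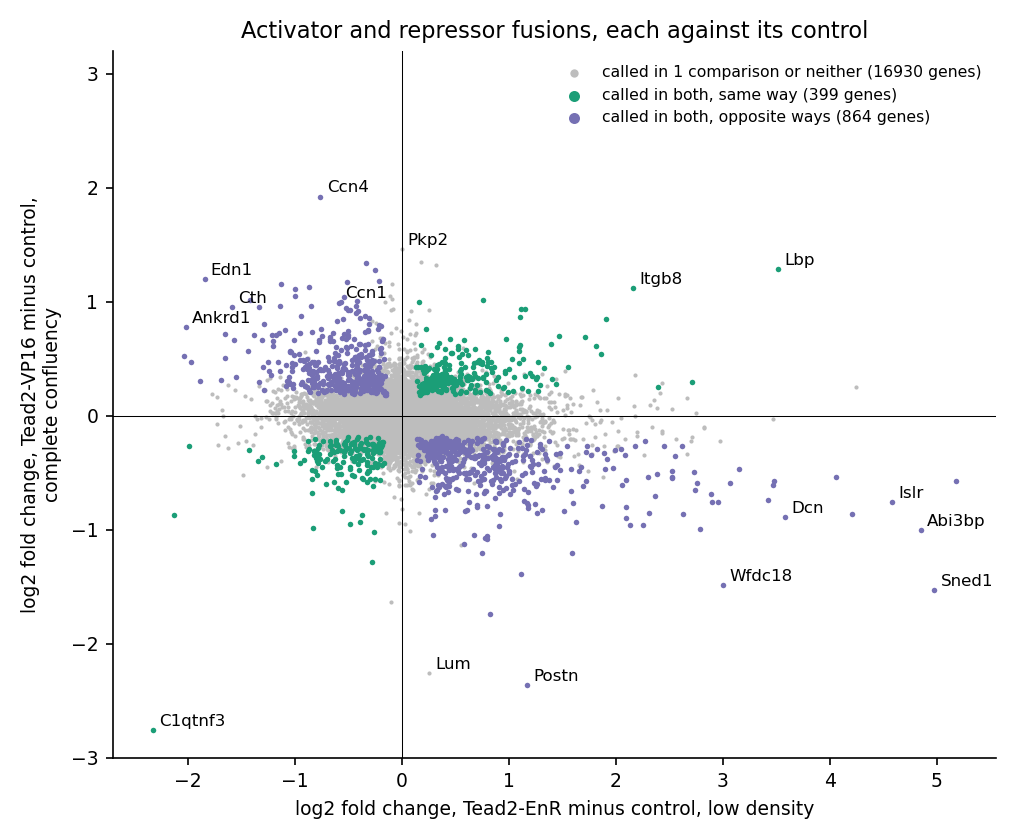
Log2 fold change of Tead2-VP16 minus control at complete confluency (vertical axis) against that of Tead2-EnR minus control at low density (horizontal axis) for 18193 genes. Purple points are the 864 genes called in both and in opposite directions, green points the 399 called in both and in the same direction, grey points the rest; Edn1, Ankrd1 and Ccn4 lie at the upper left, Sned1 at the lower right and C1qtnf3 at the lower left.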

How the data were processed

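RNA from the 12 samples was labelled with the Affymetrix one-cycle kit and hybridised to 1 array each. The authors deposited 1 table of probe set intensity values, made with RMA per the submitters' processing notes, whose version is not given in the sources used here. The values run from 3.77 to 25979.8, a linear scale, so log2 was taken here and the normalization kept. The small number of arrays bounds the precision, and no detection calls were used here. Of 45101 probe sets, 34945 had exactly 1 symbol in the platform annotation, 932 several and 9160 none. For each of 18193 genes (9010 with several probe sets) the brightest probe set on average over the 12 arrays was kept. Other probe sets of a named gene are given for some genes only, and some of those left out were not called. One mean per group was fitted to all 12 arrays in limma 3.58.1 (R 4.3.3; lmFit, contrasts.fit, eBayes; residual degrees of freedom 6, prior 3.45). All tests are two-sided, with Benjamini-Hochberg adjustment over all genes of a comparison.

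By rule the text names Tead2, Yap1, Ccn1, Ccn2, Ccn4 and Ankrd1; the 15 largest rises and 15 largest falls among called genes without overlap whose higher group is above the median gene, clones left out; and up to 4 called members per list (45 lists) by smallest adjusted p. Other genes named were chosen after their values were seen. The comparison, its members and the lists were chosen with earlier results of these data known. Alternatives tried were a level filter, other probe set rules, quantile normalization, centring, the 4 arrays alone, a trended robust prior, the replicate number as a block, an offset of 16 before log2, and each array left out. On data simulated for 18193 genes, the fit for this comparison recovered 65% of 100 genes set to 0.5 and 97% of 100 genes set to 1 (log2). It also called 8 unchanged genes. The simulation used independent normal noise and far fewer changed genes than were called here, so its recovery may not hold for these data. Plots were made in Python 3.11.15 using matplotlib 3.10.9.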

Additional observations from a re-analysis of the deposited data

How the results depend on the processing

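The 1815 calls became 859 with only the 4 arrays of the comparison (425 higher, 434 lower) and 2795 with an intensity trend and robust prior (1443 higher, 1352 lower). Calls higher were 1405 with only genes above the median level and 1382 with arrays centred, where the calls lower were 632. With 1 of the 4 arrays left out, there were 847 to 986 calls, 440 to 518 higher and 389 to 479 lower; a lone array was then assumed to vary like the other groups. With every probe set tested, the Tead2-EnR comparison had 11704 calls and the difference between the fusions 9705. Of genes called with both fusions, those higher with Tead2-VP16 were called the opposite way in 63.3%, in 68.1% with quantile normalization, 72.5% with centring, 59.0% with the trended prior and 64.2% to 69.5% with an array left out. Those lower were opposite in 73.6%, in 68.0% with the level filter, 68.5% with centring, 82.1% with only the arrays compared and 74.7% to 77.5% with an array left out. For these shifts the cause was not tested, beyond fewer arrays or other features entering the fit. Ccn2, not called, ranged from -0.086 to 0.319 with an array left out, turned negative without control array 1 and was called higher without control array 2 (adjusted p = 0.02997). Yap1, not called, was 0.05 with the mean of its probe sets, 0.044 with centring and -0.034 to 0.032 with an array left out. Of 162 named called genes, 107 were called in every alternative that gave a value and 0 reversed; the level filter gave no value for 12. With the replicate block there were 1630 calls (812 higher, 818 lower). Same-numbered arrays of the compared groups had deviations with r = 0.084, so the numbers do not establish a pairing; with the 4 arrays alone the replicate block left 244 calls each way, and with the numbers crossed 365 higher and 401 lower. Poly-A spike-ins were higher in array 2 in 6 of 6 groups.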
